A study of Homo sapiens with 12 samples.

Results

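The replication-dependent histone genes supply the core histones H2A, H2B, H3 and H4 and the linker histone H1 that package newly made DNA. They were examined here in the RNA recovered from cytoplasmic lysates of MiaPaCa-2 cells, a human pancreatic ductal adenocarcinoma (PDAC) line. Members were taken by symbol (H1-1 to H1-6, or H2AC, H2BC, H3C or H4C with a number, or an older HIST name), without pseudogenes, from transcript clusters with a single gene symbol, and the brightest cluster of each gene was used. This gave 59 genes of the 33458 genes tested. They comprised 6 H1, 12 H2A, 18 H2B, 10 H3 and 13 H4 genes. A further 11 genes with these symbols were measured only on clusters shared by several histone genes and were not counted as members. One cluster of the H2B class is annotated with an older symbol that RefSeq lists for more than 1 gene, and it is given here as HIST1H2BE.

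mRNAs of this family are unusual in that they lack introns and a poly(A) tail and end in a stem-loop, which is bound by the stem-loop binding protein SLBP. They accumulate in S phase, when DNA is replicated, and are rapidly degraded when DNA synthesis stops. Most of the genes lie in clusters on chromosome 6, with a smaller group on chromosome 1, and 49 and 8 of the members lay there. Variant histones such as H3.3 and H2A.Z are instead made from ordinary polyadenylated mRNAs throughout the cell cycle.

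HuR (gene ELAVL1) is an RNA-binding protein best known for binding AU-rich and U-rich mRNAs. Cells were exposed for 16 h to 10 µM olaparib, a PARP inhibitor, or to 1 µM gemcitabine, a nucleoside analog that blocks DNA synthesis. Control cells received DMSO, for a time that the sources used here do not state. Cytoplasmic lysates were immunoprecipitated with an anti-HuR antibody (HuR-IP) or with control immunoglobulin (IgG-IP), and Clariom D arrays, 12 in all and 2 per group, measured the RNA. All 6 groups are of the same unmodified cell line. The labels describe both arrays of each group as biological replicates but not how the cultures were separated, and no array of unprecipitated RNA was analysed here, so the IgG-IP arrays give the background of the procedure and not a total RNA level. Signals are on a log2 scale, and 1 unit is a doubling.

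Array medians lay between 3.73 and 3.95 and those of the antigenomic background probes between 2.88 and 3.01. Among 6 PDAC markers, the keratin gene KRT18 had a mean signal of 13.99 and VIM, which encodes vimentin, 12.44, whereas EPCAM, an epithelial adhesion gene, was near background at 3.29. Of 9 measured markers of other cell types, 8 had means between 3.07 and 5.67 and COL1A1 had 9.45, and none passed an adjusted p in any comparison. In the 9139 genes whose mean signal exceeded 6, the log2 differences between HuR-IP and IgG-IP arrays of 1 number had an SD of 1.12 in DMSO and 1.20 in gemcitabine for number 2, against 2.02 to 2.24 in the other 4 such pairs. The second HuR-IP arrays of the DMSO and gemcitabine groups therefore stood nearer to IgG-IP than the others, and the comparisons of HuR-IP with IgG-IP are also given without them.

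Of the 59 genes, 32 had a mean signal above 6 over the 12 arrays (3 H1, 8 H2A, 13 H2B, 3 H3 and 5 H4 genes), and the other 27 were dim. The brightest member of each class was H1-5, H2AC11, H2BC14, H3C11 and H4C5. Signals of H2AC11, H2BC14, H2BC18 and H4C5 exceeded 17 on at least 1 array, where the highest signal of any cluster was 19.48 to 19.9, so differences between their brightest arrays may be compressed. Members of a class share much of their coding sequence, and signal from a near-identical neighbour cannot be separated from that of the named gene. The plot of signals by class and array shows the whole set of brighter members.

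**Figure D1:**
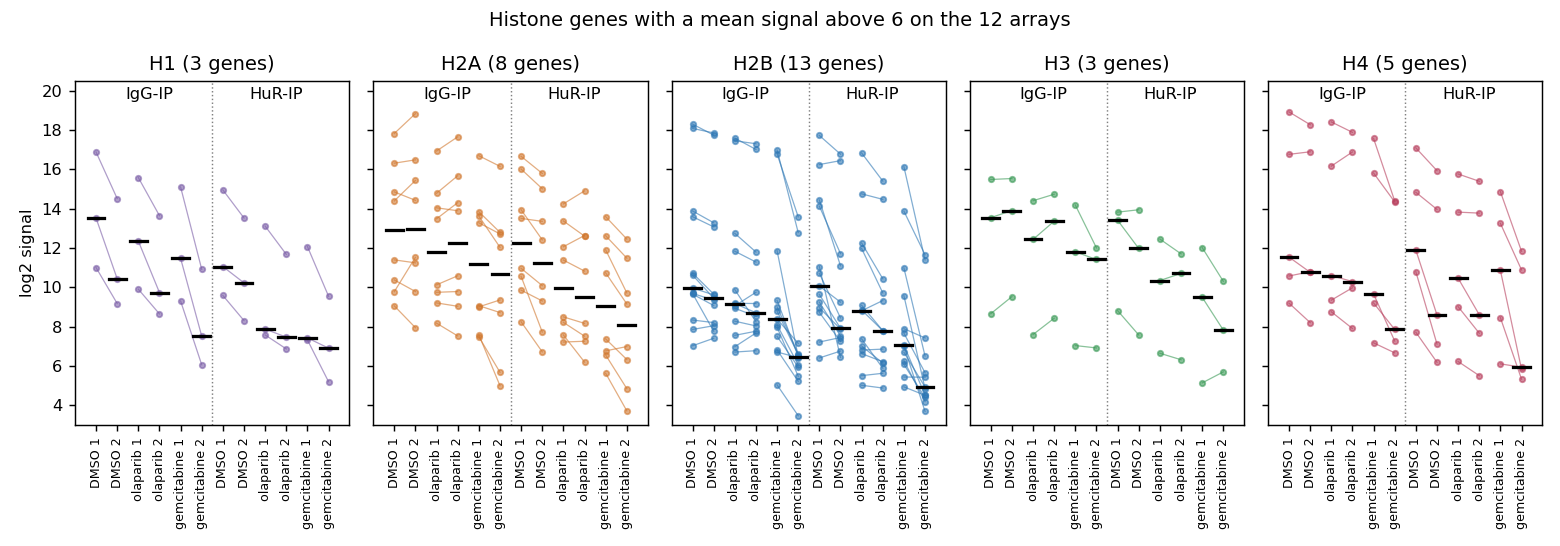
Log2 signal (y axis) of the 32 histone genes with a mean above 6, by class, on the 12 arrays (x axis: treatment and array number, IgG-IP to the left of the dotted line and HuR-IP to the right). Points are genes, thin lines join the 2 arrays of a group and black bars are class medians, and the median over all 32 genes ranged from 11.20 on the first DMSO IgG-IP array to 6.13 on the second gemcitabine HuR-IP array.

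Gemcitabine was compared with DMSO on IgG-IP arrays to see whether histone transcripts differed with treatment before any HuR selection. Histone signals were lower after gemcitabine in 57 of 59 genes, with a median log2 difference of -1.84, whereas the median over all genes was -0.02. Among the 32 brighter genes all 32 were lower, between -5.43 and -1.39 with a median of -2.37. Both gemcitabine arrays lay below both DMSO arrays in 49 of 59 members, against 13.9% of all genes, and in 29 of the 32 brighter members, against 9.06% of genes with a mean above 6. In limma, 40 of 59 members were lower at an unadjusted p under 0.05, compared with 1.29% of all genes. With the array number as a block 50 were, and the 1.29% is from the model without the block. No gene of any kind passed the adjusted p in this comparison, with or without the block, since the smallest adjusted p over all genes was 1 in the reported model.

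The histone genes filled much of the lower end of this comparison. Of the 50 genes with the lowest log2 difference among the 9139 brighter genes, 27 were members, and all 32 brighter members were among the lowest 200. Ranked by limma's moderated statistic over all 33458 genes, 14 members were among the lowest 50 and 29 among the lowest 200.

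H2B genes, whose product pairs with H2A in the nucleosome, held the lowest values. H2BC8 had signals of 13.60 and 13.08 on the DMSO arrays and 9.34 and 6.49 on the gemcitabine arrays. The groups did not overlap, and the log2 difference was -5.43 (SE 1.66, limma's unadjusted p = 0.0106), or 43-fold lower. H2BC13 went from 13.89 and 13.29 in DMSO to 11.87 and 6.47 in gemcitabine, a difference of -4.42 (SE 1.92, limma's unadjusted p = 0.0486) to which the array numbered 2 contributed most. H2BC14 had 18.31 and 17.75 in DMSO against 16.99 and 12.79 in gemcitabine, and H2BC18 had 18.09 and 17.86 against 16.79 and 13.59. Both pairs of groups were again apart, with log2 differences of -3.14 (SE 1.62, limma's unadjusted p = 0.0875) and -2.78 (SE 0.98, limma's unadjusted p = 0.0205). Across the class, 18 of 18 H2B genes were lower, 14 of them at an unadjusted p under 0.05, and 17 of 18 did not overlap with DMSO.

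H2A genes were lower in 12 of 12 cases. H2AC14 had signals of 16.32 and 16.49 in DMSO and of 13.85 and 12.80 in gemcitabine, a log2 difference of -3.09 (SE 0.57, limma's unadjusted p = 0.000538). H2AC8 had 10.38 and 9.79 in DMSO against 7.59 and 5.00 in gemcitabine, a difference of -3.79 (SE 1.07, limma's unadjusted p = 0.00715). H2AC11, the brightest of the class, had 17.83 and 18.84 in DMSO and 16.70 and 16.16 in gemcitabine, a difference of -1.91 (SE 0.54, limma's unadjusted p = 0.0074). In each of these genes both gemcitabine arrays were below both DMSO arrays, as they were in 11 of 12 H2A genes, and 9 of 12 had an unadjusted p under 0.05. The overlapping gene was H2AC1, which encodes a testis-specific H2A, at a mean signal of 4.97 and a difference of -0.39.

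Every H3 gene was lower after gemcitabine without overlap, 10 of 10, each at an unadjusted p under 0.05, although only 3 of them had a mean above 6. H3C11 had 15.49 and 15.54 in DMSO and 14.19 and 12.01 in gemcitabine, a log2 difference of -2.42 (SE 0.73). H3C2 had 13.55 and 13.91 against 11.81 and 11.42, a difference of -2.11 (SE 0.63). The dim members H3C1, H3C7 and H3C3 differed by -2.27, -1.21 and -1.37.

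Of 13 H4 genes, 12 were lower, 10 did not overlap and 6 had an unadjusted p under 0.05. H4C5, the brightest, had 18.93 and 18.28 in DMSO and 17.58 and 14.40 in gemcitabine, a log2 difference of -2.61 (SE 1.15, limma's unadjusted p = 0.0507). H4C3 had 16.77 and 16.90 against 15.82 and 14.35, a difference of -1.75 (SE 0.76, limma's unadjusted p = 0.0494). At the other end, H4C7, a diverged H4 gene, was at 3.72 and 4.10 in DMSO and at 4.88 and 4.13 in gemcitabine, near the array background. H4C9 and H4C16 had small differences of -0.32 and -0.38.

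The brighter H1 genes differed between array numbers in DMSO as well as in gemcitabine. H1-5, which encodes a linker histone, had 16.89 and 14.52 in DMSO and 15.11 and 10.92 in gemcitabine. The groups overlapped, because the first gemcitabine array was above the second DMSO array, yet within each number gemcitabine was lower. H1-2 behaved likewise, with 13.53 and 10.44 in DMSO against 11.48 and 7.52. The 3 brighter H1 genes thus had a median of -1.78 for the arrays numbered 1 and -3.12 for those numbered 2, while 0 of 3 was free of overlap. The testis-specific H1-6 and the dim H1-1 had differences of 0.16 and -0.18.

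The size of the difference depended on the array number in all classes. Over the 32 brighter members, the median was -1.66 for the arrays numbered 1 and -2.96 for those numbered 2. The corresponding medians were -1.40 and -2.61 in H2A, -1.72 and -3.05 in H2B, -1.62 and -2.60 in H3 and -1.37 and -2.94 in H4. Without the gemcitabine IgG-IP array numbered 2, the median over all 59 genes was -1.27 and 20 members were lower at an unadjusted p under 0.05, and without the array numbered 1 they were -2.18 and 42. In bulk lysates, fewer cells in S phase and less histone RNA per cell cannot be told apart.

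Olaparib gave smaller differences from DMSO on IgG-IP arrays, again mostly downward. Signals were lower in 57 of 59 genes, with a median log2 difference of -0.66, and in 32 of 32 brighter genes, with a median of -0.82. Both olaparib arrays lay below both DMSO arrays in 37 members, against 12.9% of all genes. At an unadjusted p under 0.05, 4 members were lower, against 0.75% of all genes, and 8 were with the block. These 4 were the dim genes H3C1, H3C3, H2AC12 and H4C12. None passed the adjusted p. H2BC8 was again the lowest, at 11.84 and 11.29 in olaparib, a difference of -1.78 (SE 1.66). H3C3 had 5.41 and 5.46 in DMSO and 4.18 and 4.01 in olaparib, a difference of -1.34 (SE 0.30, limma's unadjusted p = 0.0017). H2BC13 differed by -1.32, H3C1 by -1.27 and HIST1H2BE, at background on most arrays, by -1.21. The 5 highest members were dim genes between -0.12 (H4C7) and 0.02 (H4C9 and H1-1), with H2BC10 and H2AC1 at -0.09.

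The gemcitabine and olaparib comparisons share the DMSO arrays, so the drugs were also compared directly on IgG-IP arrays. Gemcitabine was lower than olaparib in 56 of 59 members, with a median of -1.18, and 15 members were lower at an unadjusted p under 0.05, against 0.909% of all genes. With the block 28 were, and without the gemcitabine or the olaparib array numbered 2 only 2 were. The median was -0.59 without the gemcitabine array numbered 2, and that of the brighter members was -0.72 on the arrays numbered 1 and -2.55 on those numbered 2. The medians of the brighter members were -1.66 in H2B, -1.59 in H1, -1.44 in H4, -1.29 in H3 and -1.20 in H2A. The plot of both drugs against DMSO by array number sets these values beside other genes of histone biology.

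**Figure D2:**
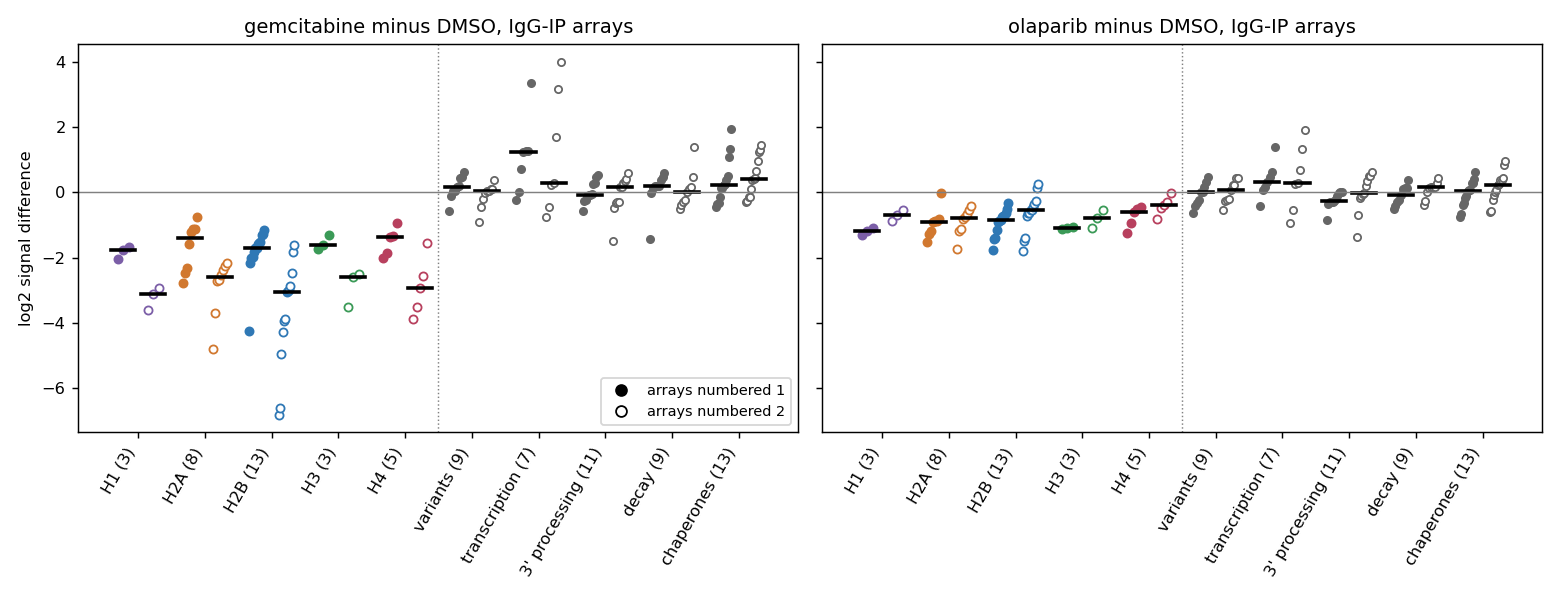
Difference in log2 signal from DMSO on IgG-IP arrays of the same number (y axis), for gemcitabine (left) and olaparib (right), by histone class for members with a mean above 6 and, right of the dotted line, for the related gene lists. Each point is a gene, filled for arrays numbered 1 and open for arrays numbered 2, black bars are medians, numbers in brackets are genes, and all 32 histone genes were below 0 with gemcitabine on both numbers.

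Genes that make, process and handle histones had medians near or above 0 in the same IgG-IP comparison. Of the replication-independent variants, 9 of 11 listed were measured, and their gemcitabine differences lay between -0.30 and 0.25 with a median of 0.07. H2AZ1, which encodes the variant H2A.Z, had 15.92 and 14.52 in DMSO and 15.80 and 14.91 in gemcitabine. H2AJ, an H2A variant, had 11.84 and 10.71 against 11.89 and 10.26, and H3-3B, a source of H3.3, had a difference of 0.00. None of the 9 reached an unadjusted p under 0.05.

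SLBP, the stem-loop binding protein needed for histone mRNA processing, translation and stability, had 13.38 and 12.59 in DMSO and 13.31 and 12.94 in gemcitabine, a log2 difference of 0.14 (SE 0.48). The 11 genes of 3′ end processing and translation had a median of 0.01. Of these, 1 was lower at an unadjusted p under 0.05 (1.29% of all genes were), MIF4GD, an SLBP partner in translation, at -1.04 and a mean signal of 4.15. The 9 genes of histone mRNA decay had a median of 0.06, and none reached that threshold.

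Genes of transcription at the histone locus body, where histone genes are transcribed, had a median of 0.76 over the 7 measured of 8. Over all 33458 genes 368 were higher at an unadjusted p under 0.05, and in this list 1 was. This was CCNE2, a cyclin E gene whose product acts with CDK2 at entry into S phase. Its signals were 5.54 and 4.65 in DMSO, 8.91 and 8.66 in gemcitabine and 6.93 and 5.97 in olaparib, and the gemcitabine difference was 3.69 (SE 0.74, limma's unadjusted p = 0.000925, adjusted p = 1). CCNE1, the other cyclin E gene, had 11.48 and 10.61 in DMSO against 12.75 and 12.32 in gemcitabine, a difference of 1.49 (SE 0.71, limma's unadjusted p = 0.0676). NPAT, the cyclin E target that activates histone genes, differed by 0.47 (SE 1.06). The 13 measured histone chaperones had a median of 0.29, with 1 at an unadjusted p under 0.05, CHAF1B, a subunit of the replication-coupled chaperone CAF-1, at 1.62 (SE 0.55). CCNE2, CHAF1B and MIF4GD were named after their values were seen.

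HuR-IP arrays, which share no array with the IgG-IP comparison, gave the gemcitabine difference a further set of measurements. They may come from the same cultures as the IgG-IP arrays, which the labels do not state. Both gemcitabine HuR-IP arrays lay below both DMSO HuR-IP arrays in 46 of 59 members, against 14.1% of all genes. They did so in 29 of the 32 brighter members, against 14.9% of genes with a mean above 6. The median over the brighter members was -3.07, against -0.20 over all genes with a mean above 6, and the values by class were -3.43 in H1, -3.33 in H2A, -3.16 in H2B, -2.78 in H3 and -2.07 in H4. H2AC11 had 16.67 and 15.80 in DMSO and 13.60 and 12.46 in gemcitabine. H2BC8 had 14.45 and 11.10 against 9.58 and 4.85, again without overlap. On the arrays numbered 1 alone the brighter members had a median of -2.82, and on those numbered 2 of -3.22. With olaparib, 37 of 59 members were without overlap below DMSO on HuR-IP arrays, against 21.6% of all genes. Of the 32 brighter members 21 were, against 36.6% of genes with a mean above 6. The brighter members had a median of -1.62, where all genes with a mean above 6 had -0.53. Here the medians were -1.92 on the arrays numbered 1 and -1.20 on those numbered 2. These are descriptions of the arrays, and no test was run on them.

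H2A and H2B genes often lie head to head and are read from a shared promoter. In the RefSeq promoter table (GRCh38.p14), 54 of 59 members had an entry, and 8 pairs of an H2A and an H2B member had divergent starts with 214 to 247 bases between them. Motifs known from histone promoters were searched on both strands of the 250 bases before each start, and no match of one overlapped a match of another. The octamer ATTTGCAT, the letters bound by POU2F1, was found in 14 of 17 H2B and 8 of 11 H2A promoters and in 0 of 6 H1, 0 of 9 H3 and 0 of 11 H4 promoters, against 1.63% of all 35116 promoters in the table. TATAAA was found in 38 of 54 member promoters (10.7% of all promoters), and CCAAT in 46 of 54, with 3 of 11 in H4 (32% of all). In 8 H2B promoters the octamer stood on the coding strand with its first base at positions -49 to -45, counted back from -1, the base before the start. Of the H2B genes, only H2BC5, H2BC13 and H2BC26 had no octamer in this window.

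The sequences printed here run 5′ to 3′ on the coding strand of the named gene and end at the base before its start, with all matches to ATTTGCAT, TATAAA and CCAAT or their reverse complements in capitals. The first 4 fill the space between a divergent pair and were chosen because they include the members with the lowest gemcitabine values (H2BC8 with H2AC8, H2BC13 with H2AC13), the brightest H2A gene (H2AC11 with H2BC11) and the brightest H2B gene (H2BC14 with H2AC14). H3C2 and H4C5 show 120 bases of promoters without the octamer. Positions are H2BC8 chr6:26216689-26216920 minus strand, H2AC11 chr6:27132796-27133042 plus strand, H2BC14 chr6:27814778-27815021 plus strand, H2BC13 chr6:27807930-27808172 minus strand, H3C2 chr6:26032100-26032219 minus strand and H4C5 chr6:26204490-26204609 plus strand.
H2BC8: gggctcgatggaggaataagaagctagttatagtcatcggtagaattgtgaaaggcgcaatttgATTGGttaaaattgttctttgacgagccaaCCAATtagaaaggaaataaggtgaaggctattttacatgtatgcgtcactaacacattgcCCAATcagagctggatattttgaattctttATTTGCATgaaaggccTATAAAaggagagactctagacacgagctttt
H2AC11: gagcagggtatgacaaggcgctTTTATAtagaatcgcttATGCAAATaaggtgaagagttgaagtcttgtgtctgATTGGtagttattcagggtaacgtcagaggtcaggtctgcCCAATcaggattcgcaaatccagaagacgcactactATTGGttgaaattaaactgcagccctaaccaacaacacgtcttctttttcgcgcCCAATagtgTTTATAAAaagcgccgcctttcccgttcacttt
H2BC14: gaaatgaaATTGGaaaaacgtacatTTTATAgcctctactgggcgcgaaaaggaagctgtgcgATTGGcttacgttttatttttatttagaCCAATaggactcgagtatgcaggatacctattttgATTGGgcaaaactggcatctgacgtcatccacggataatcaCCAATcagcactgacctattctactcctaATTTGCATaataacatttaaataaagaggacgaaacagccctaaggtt
H2BC13: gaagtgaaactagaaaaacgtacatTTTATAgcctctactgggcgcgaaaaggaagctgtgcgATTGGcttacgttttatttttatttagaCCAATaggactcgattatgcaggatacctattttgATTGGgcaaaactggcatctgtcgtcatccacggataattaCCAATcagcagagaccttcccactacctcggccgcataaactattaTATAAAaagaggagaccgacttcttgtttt
H3C2: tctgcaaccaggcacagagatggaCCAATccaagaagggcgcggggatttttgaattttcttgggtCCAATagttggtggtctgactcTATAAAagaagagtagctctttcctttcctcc
H4C5: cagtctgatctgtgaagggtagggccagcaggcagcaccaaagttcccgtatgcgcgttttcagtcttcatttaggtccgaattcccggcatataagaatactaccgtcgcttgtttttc

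In H2BC8 the octamer began at position -48 and TATAAA at -32. H2BC14 had the octamer at the same position and no TATAAA on its coding strand, whereas H2BC13 had TATAAA at -30 and no octamer. In the stretch before H2AC11 the octamer was on the opposite strand at -208, toward H2BC11. H3C2 had TATAAA at -32 with CCAAT at -54 and -96, and H4C5 held none of the 3 motifs in the stretch shown. A match is a description of letters, and its part in the signals was not tested.

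The 2 genes of a divergent pair did not always differ from DMSO by the same amount. H2BC8 and its partner H2AC8 differed by -4.26 and -2.79 on the arrays numbered 1 and by -6.60 and -4.79 on those numbered 2. H2BC13 and H2AC13, without an octamer, were close on the arrays numbered 1, at -2.02 and -2.33, and apart on those numbered 2, at -6.82 and -2.53. H2AC11 and H2BC11 were similar on both, with -1.13 and -1.56 on the first and -2.68 and -3.02 on the second. The mean difference was lower in the H2B gene than in the H2A gene in 6 of 8 pairs, by 0.05 to 1.99, and the reverse held for H2BC21 with H2AC20 and for H2BC4 with H2AC6. H2AC1 and H2BC1, both testis-specific genes at low signal, had the smallest differences of the 8 pairs, -0.39 and -0.48. The plot of the 8 pairs shows both array numbers.

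**Figure D3:**
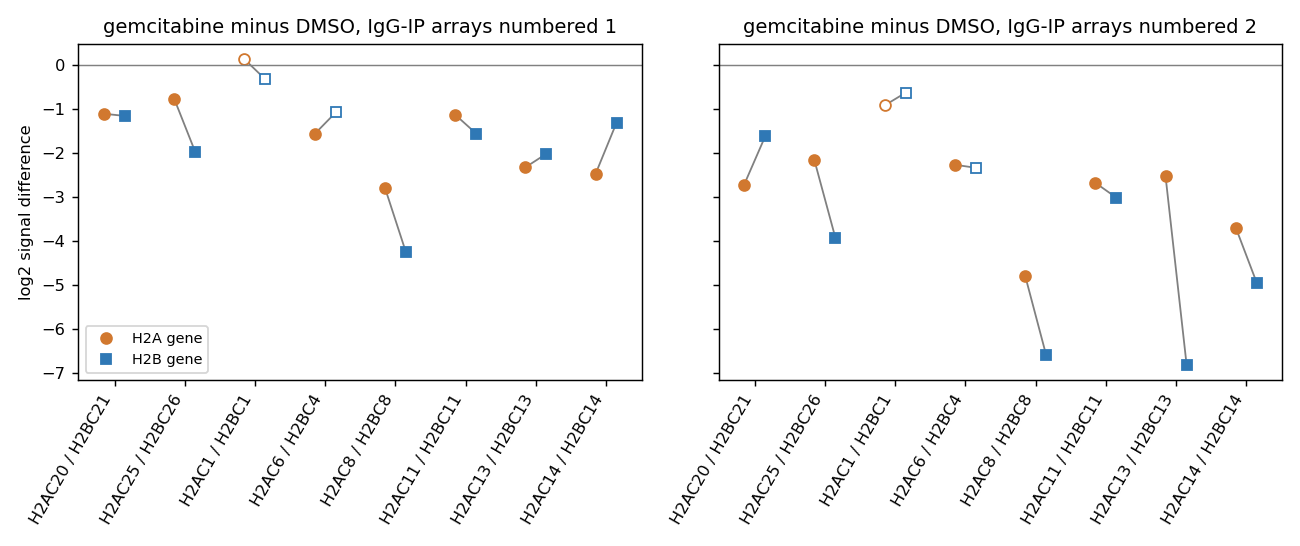
Gemcitabine minus DMSO log2 signal on IgG-IP arrays (y axis) for the 8 divergent H2A and H2B pairs (x axis), for arrays numbered 1 (left) and 2 (right). Circles are H2A genes and squares H2B genes, open symbols mark genes with a mean of 6 or below, and the widest gap was in H2AC13 and H2BC13 on the arrays numbered 2 (-2.53 and -6.82).

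HuR-IP was then compared with IgG-IP to see whether histone transcripts were recovered with HuR above the background of the procedure. Averaged over the treatments, 22 of 59 members were lower in HuR-IP and 0 higher at an adjusted p under 0.05 (6 arrays against 6), against 7.51% of all genes lower. With the array number as a block, 33 were lower and 0 higher. The 7.51% is from the model without the block and is not a matched share for the 33. The median log2 fold change was -0.93, against -0.07 over all genes, and 55 of 59 members were below 0. The 32 brighter members had a median of -1.55, against -0.56 over genes with a mean above 6. On arrays numbered 1 and 2, their medians were -0.76 and -1.53 in DMSO, where genes with a mean above 6 had -0.7 and 0.15. In olaparib they were -1.92 and -2.07, beside -1 and -0.8. In gemcitabine they were -1.71 and -1.38, beside -1.11 and 0.13. The margin in DMSO thus came mostly from the arrays numbered 2. Of the 32 brighter members 15 were lower, against 21.2% of brighter genes. No member was among the 200 lowest fold changes of the brighter genes or the 200 lowest moderated statistics of all genes.

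H2AC11 had the lowest fold change and the smallest adjusted p of the members. Its IgG-IP signals were 17.83 and 18.84 for DMSO, 16.94 and 17.66 for olaparib, and 16.70 and 16.16 for gemcitabine, and its HuR-IP signals in the same order were 16.67 with 15.80, 14.25 with 14.91, and 13.60 with 12.46. HuR-IP was below IgG-IP without overlap in each treatment. Among genes with a mean above 6, 27.1% were so in DMSO, 50.1% in olaparib and 29.3% in gemcitabine, each treatment taken singly. The log2 fold change of H2AC11 was -2.74 (SE 0.31, adjusted p = 0.00133), or 6.69-fold lower. H2AC11 stayed past the threshold in all 19 alternatives run, as did H2AC13.

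In the H2A class, 7 of 12 genes were lower in HuR-IP, and 11 with the block. H2AC13 had a fold change of -1.78 (SE 0.26, adjusted p = 0.0041), H2AC20 of -2.03 (SE 0.33, adjusted p = 0.0071) and H2AC25 of -1.61 (SE 0.29, adjusted p = 0.0115). H2AC20 had 14.40 and 15.44 on the DMSO IgG-IP arrays and 13.51 and 13.36 on the HuR-IP arrays, and 13.29 and 12.72 against 10.74 and 9.16 in gemcitabine. Neither pair of groups overlapped. H2AC21 (-2.11), H2AC14 (-1.46) and the dim H2AC12 (-0.72) passed with adjusted p from 0.0254 to 0.0392.

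H3 genes were lower in 6 of 10 cases, and in 7 with the block. H3C2 had a fold change of -2.12 (SE 0.37, adjusted p = 0.00911), with 13.55 and 13.91 on the DMSO IgG-IP arrays and 13.42 and 11.98 on the HuR-IP arrays, just below them without overlap. H3C7 (-0.82, adjusted p = 0.0107) and H3C3 (-0.93, adjusted p = 0.0117) also passed, at mean signals of 4.30 and 4.06 where differences are compressed. H3C11 (-2.02), H3C15 (-1.33) and H3C1 (-1.27) completed the 6, and H3C8 had the highest value of the class, -0.28.

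H4 genes were lower in 4 of 13 cases, and in 5 with the block. H4C3 had a fold change of -2.72 (SE 0.44, adjusted p = 0.00659), with IgG-IP signals of 16.77 and 16.90 against HuR-IP signals of 14.84 and 13.97 in DMSO. H4C1 (-1.70) and the dim H4C11 (-1.31, adjusted p = 0.00607) and H4C12 (-0.73) also passed. H4C5 had -2.43 (SE 0.66, adjusted p = 0.0549) and passed with the block (adjusted p = 0.00566). H4C16, on chromosome 12, was at 0.42 (SE 0.18, adjusted p = 0.203).

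H2B genes were lower in 5 of 18 cases, 7 with the block, and H1 genes in 0 of 6. H2BC21 had 7.86 and 8.05 on DMSO IgG-IP arrays, 6.41 and 6.76 on HuR-IP arrays, and a fold change of -1.42 (SE 0.17, adjusted p = 0.00145). H2BC3 (-2.35, adjusted p = 0.0428) and H2BC18 (-2.27, adjusted p = 0.0407) also passed, as did H2BC12 (-1.99) and the dim H2BC4 (-0.98), whereas H2BC14, nearly as bright, had -1.03 (SE 0.94, adjusted p = 0.573). H1-2 had -2.35 (SE 0.82, adjusted p = 0.118) and H1-5 -1.96 (SE 0.87, adjusted p = 0.214), and both passed with the block (adjusted p = 0.013 and 0.00605), as 3 of the 6 H1 genes did.

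H2BC26 was the one brighter member with a higher mean in HuR-IP. On the arrays numbered 1 its HuR-IP signals were 11.06 in DMSO, 9.09 in olaparib and 7.01 in gemcitabine, against IgG-IP signals of 7.03, 6.71 and 5.04. On those numbered 2 they were 6.44, 7.80 and 3.69 against 7.41, 6.78 and 3.47. The groups overlapped in DMSO and in gemcitabine but not in olaparib, and the fold change of 1.44 (SE 0.86, adjusted p = 0.361) did not pass. When the second HuR-IP arrays of the DMSO and gemcitabine groups, those nearer to IgG-IP, were left out, it was 2.77 (adjusted p = 0.0038), and 3.84 in DMSO alone (adjusted p = 0.0456), where the lone HuR-IP array was assumed to vary like the other groups. Without the first DMSO HuR-IP array the DMSO value was -0.77. The testis-specific genes H2AC1 and H1-6 had 0.40 and 0.22 at low signal.

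**Figure D4:**
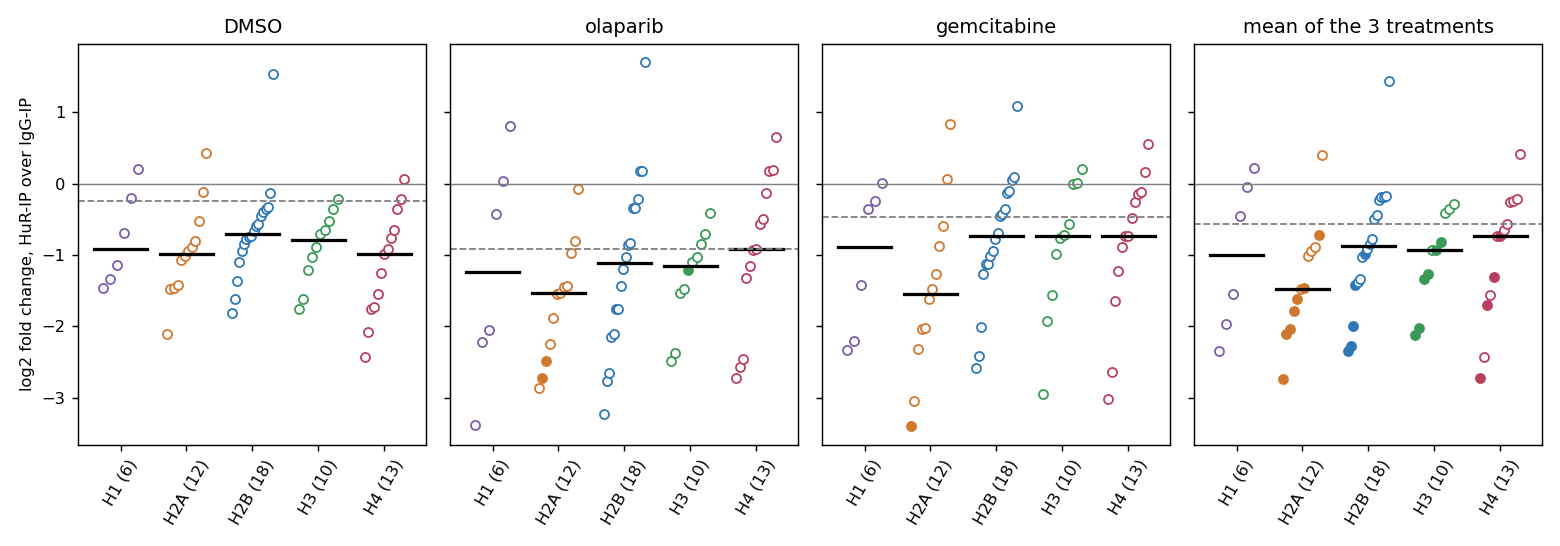
Log2 fold change of HuR-IP over IgG-IP (y axis) of the 59 histone genes by class (x axis, number of genes in brackets) in each treatment and in the mean of the 3. Each point is a gene, filled where the adjusted p was under 0.05 (0, 4, 1 and 22 genes, all lower), black bars are class medians, and dashed lines are the medians of all genes with a mean above 6 (-0.24, -0.91, -0.47 and -0.56).

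Within single treatments, with 2 arrays against 2, fewer members passed. In DMSO, 0 members were lower at an adjusted p under 0.05 (0.478% of all genes and 1.67% of genes with a mean above 6), and 11 were at an unadjusted p under 0.05, with a median of -0.85. Without the first DMSO HuR-IP array 16 were and the median was -1.35, and without the second 7 were and it was -0.36. With the block, 1 passed, H4C1 (-1.75, adjusted p = 0.0491). In olaparib, 3 of the 32 brighter members were lower, a share near the 9.84% of brighter genes. With the dim members counted, 4 of 59 were lower (3.04% of all genes), and the median was -1.19. These were H2BC21 at -1.76 (adjusted p = 0.0169), H2AC13 at -2.49 (adjusted p = 0.0238), H2AC11 at -2.72 (adjusted p = 0.0356) and H3C7 at -1.21 (adjusted p = 0.0419), and 16 members passed with the block. In gemcitabine, H2AC11 alone was lower, at -3.40 (SE 0.54, adjusted p = 0.03), against 0.977% of all genes. It was 1 of the 32 brighter members, a share near the 3.26% of brighter genes. The median was -0.78, and 5 passed with the block. The olaparib count was 0 without the olaparib IgG-IP array numbered 2 or either olaparib HuR-IP array, 1 without the olaparib IgG-IP array numbered 1, 2 without either gemcitabine IgG-IP array and 7 without either gemcitabine HuR-IP array. The gemcitabine count was 0 without any single gemcitabine or olaparib array and 2 without either DMSO IgG-IP array. The gemcitabine median was -0.33 and -1.27 without the first and second gemcitabine IgG-IP array and -1.29 and -0.52 without the first and second HuR-IP array.

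When the second HuR-IP arrays of the DMSO and gemcitabine groups were left out, 15 members were lower and 1, H2BC26, was higher in the treatment mean, and the median was -0.69. In that model 0 were lower in DMSO (9 at an unadjusted p under 0.05), 1 in gemcitabine and 11 in olaparib, whose own arrays were all kept. Leaving out single arrays gave 11 to 24 lower members, with 11 without the olaparib HuR-IP array numbered 2, 12 without the olaparib IgG-IP array numbered 2, 13 and 14 without the first and second DMSO IgG-IP array and 14 without the first gemcitabine IgG-IP array. The median of the brighter genes was below 0 in the treatment mean (-0.56), but 0.15 and 0.13 on the arrays numbered 2 of DMSO and gemcitabine. When each array was centred on the brighter genes, 12 members were lower and 0 higher in the treatment mean. Their median was then -0.49 over all members, beside 0.38 for all genes.

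Whether the HuR-IP to IgG-IP difference itself varied with treatment was also tested. Against DMSO, the median over all 59 members was -0.39 with olaparib and -0.07 with gemcitabine, where all genes had -0.02 in both. The 32 brighter members had -0.67 and -0.56, where genes with a mean above 6 had -0.53 and -0.19. Both medians over all 59 members changed sign when single arrays were left out. The olaparib median was 0.06 without the first DMSO HuR-IP array, -0.81 without the second and 0.16 when arrays were centred on brighter genes. The gemcitabine median lay between -0.64 and 0.54 when single arrays were left out, the extremes coming from the second and the first gemcitabine IgG-IP array, and was 0.12 with centring. No gene passed the adjusted p in either comparison. At an unadjusted p under 0.05, 2 members were lower with olaparib (1.48% of all genes were), H2BC12 at -2.47 (SE 1.04) and H2AC13 at -1.70 (SE 0.63). With gemcitabine 0 were lower (0.625% of all genes were) and 1 was higher (297 of 33458 genes were), the dim H2AC12 at 1.49 (SE 0.43). When the second HuR-IP arrays of the DMSO and gemcitabine groups were left out, 6 were lower with olaparib and 2 with gemcitabine. For H2AC11 the differences were -0.62 (SE 0.77) and -1.30 (SE 0.77).

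Genes of histone mRNA handling were also compared between HuR-IP and IgG-IP, where, averaged over treatments, 7.51% of all genes and 21.2% of those with a mean above 6 were lower. Of 11 genes of 3′ end processing and translation 3 passed (5 with the block), all lower: CPSF3, the endonuclease that cuts histone pre-mRNA, at -2.38 (adjusted p = 0.00294), SLBP at -1.77 (SE 0.28, adjusted p = 0.0059) and LSM10, of the U7 snRNP, at -1.59 (adjusted p = 0.00675). SLBP had 13.38 and 12.59 on the DMSO IgG-IP arrays and 11.91 and 11.81 on the HuR-IP arrays. Of the locus body genes 2 of 7 were lower, CCNE1 (-1.85, adjusted p = 0.0263) and HINFP, which activates H4 genes (-0.96, adjusted p = 0.0139).

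Among the variants, 3 of 9 were lower (4 with the block), H2AJ at -2.97 (adjusted p = 0.00842), H2AZ1 at -2.51 (adjusted p = 0.00904) and H3-3B at -1.79 (adjusted p = 0.0414), and 0 were higher. Of 13 chaperones 3 were lower, a share near the 21.2% of genes with a mean above 6, which also stands beside the variants. They were HAT1, which acetylates new H4, at -2.27 (adjusted p = 0.00962), SSRP1, of the FACT complex, at -2.24 (adjusted p = 0.0135) and RBBP7, a histone-binding protein, at -2.42 (adjusted p = 0.0171). With the block RBBP4, of the same family as RBBP7, was higher at 2.16 (adjusted p = 0.00815). In the decay list the kinase gene SMG1 was higher (800 of 33458 genes were), at 1.59 (adjusted p = 0.0473), joined with the block by LSM1 at 0.89 (adjusted p = 0.0107), and 0 were lower. No list was tested as a whole. ELAVL1 itself, which encodes HuR, had a fold change of 1.19 (SE 0.32, adjusted p = 0.0516, and 0.00696 with the block), with DMSO signals of 18.19 and 17.69 in IgG-IP against 19.61 and 18.06 in HuR-IP, which overlapped.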

How the data were processed

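RNA from 12 immunoprecipitations was measured on Clariom D arrays. The authors normalized raw intensities in Affymetrix Expression Console 1.4, the submitters' processing notes name RMA, and the deposited values are log2 signals, used here without further scaling. Array number, not sequencing depth, limits the precision. The genome build of the array files is not given in the sources used here. Cluster names were brought up to date with RefSeq (GRCh38.p14), 58 of 59 members by gene ID.

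In R 4.3.3, limma 3.58.1 was used to fit 33458 genes with a mean per group (6 groups), with Benjamini-Hochberg adjustment over all of them and a threshold of 0.05. It was checked on simulated data whose arrays varied independently, so the check does not cover arrays of 1 number that vary together. P-values rest on the spread between the 2 arrays of a group, pooled over all 6 groups and moderated across genes. Arrays outside a comparison thus enter its p-values, and the spread may be technical. Across all 15 pairs of groups, arrays of 1 number deviated together from the means of their groups (correlation 0.25 to 0.91). The correlation was 0.8 to 0.83 between IgG-IP groups. Between HuR-IP and IgG-IP of 1 treatment it was 0.25 in DMSO, 0.31 in gemcitabine and 0.67 in olaparib. The labels do not state a pairing. The reported model has no block, and values with the array number as a block are given beside the counts they move. Shares of all genes are from the model without the block and are not matched to counts with it. Alternatives were cyclic loess, centring on brighter genes, a signal filter, a trended robust prior, only the compared arrays, the block, the mean of a gene's clusters, and leaving out arrays.

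The members and gene lists were chosen with earlier results of these data known. Named genes were H2AC11, the brightest and the extreme members of each class, the extremes of each drug comparison, up to 10 members past the adjusted p, those above 17, and up to 4 genes of each list. Members of divergent pairs, the remaining called members and genes called only without adjustment or only with the block were named beside them after their values were seen.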

Additional observations from a re-analysis of the deposited data

Results flagged for a closer look

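The HuR-IP to IgG-IP difference departed from that in DMSO, at limma's unadjusted p under 0.05, in 3 members. Of all 33458 genes, 392 were higher and 494 lower at that threshold with olaparib, and 297 higher and 209 lower with gemcitabine. H2BC12 had -2.47 with olaparib, H2AC13 had -1.70 with olaparib and H2AC12 had 1.49 with gemcitabine. None passed the adjusted p.

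Histone clusters with several gene symbols were outside the reported comparisons, and all 8 had lower IgG-IP signals with gemcitabine than with DMSO, without overlap between the arrays. The log2 differences were -2.28 and -2.35 for the 2 clusters of H4C14 and H4C15, -1.86 and -2.00 for the 2 clusters of H2AC18 and H2AC19, -2.33 for H3C15 with H3C14, -2.03 for H2AC16 with H2BC15, -2.26 for H3C4 with H2AC7 and -2.00 for H2AC17 with H3C12. The cluster of H2AC16 and H2BC15 had 14.10 and 13.88 in DMSO and 13.03 and 10.89 in gemcitabine. These differences were not tested.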

How the results depend on the processing

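No called member, and none of the 5 lowest in either drug comparison, reversed its direction under any alternative run. Named members near 0 or split between arrays did. On IgG-IP arrays without single arrays, the gemcitabine difference ranged from -0.85 to 0.06 for H2AC1, from -0.66 to 0.03 for H4C9 and from -0.48 to 0.80 for H1-6, and the olaparib difference from -0.50 to 0.55 for H4C9, from -0.40 to 0.17 for H4C7, from -0.32 to 0.13 for H2BC10, from -0.18 to 0.00 for H2AC1 and from -0.14 to 0.18 for H1-1. H3C8 in the treatment mean was 0.16 with centring, and H2BC26 in DMSO ranged from -0.77 to 3.84. Of the 22 members lower in the treatment mean, H2AC11 and H2AC13 kept the call under all 19 alternatives, H2AC20, H2BC21, H3C2, H3C3, H3C7, H4C3 and H4C11 lost it under 1, H2AC25 under 2, H3C1, H4C1 and H4C12 under 3, H3C15 under 6, H2BC12 and H3C11 under 7, H2AC21 under 8, H2AC14 and H2BC3 under 10, H2BC4 and H2BC18 under 11 and H2AC12 under 12. Calls within 1 treatment were less stable: in olaparib H2BC21 lost it under 6, H2AC13 under 7, H2AC11 under 9 and H3C7 under 13, and in gemcitabine H2AC11 under 12. H2BC26 gained a call, higher in HuR-IP at 2.77, without the second HuR-IP arrays of the DMSO and gemcitabine groups. For HuR-IP against IgG-IP, the count of members lower at the adjusted p in the mean of the 3 treatments was 12 when arrays were centred on brighter genes, which moved the median of all genes from -0.07 to 0.38 and the calls over all genes from 2512 lower and 800 higher to 1726 and 2290, and 11 to 24 when single arrays were left out, the lowest without the olaparib HuR-IP array numbered 2. The other alternatives stayed within 1.5 times of 22, cyclic loess with 15 and the array number as a block with 33. In DMSO the count was 1 with the block. In olaparib it was 16 with the block, 12 with only the compared arrays, 11 without the second HuR-IP arrays of the DMSO and gemcitabine groups, 2 with cyclic loess, 1 with centring, 0 with the trended robust prior and 0 to 7 without single arrays, with 0 when any of the olaparib arrays except the IgG-IP array numbered 1 was left out. In gemcitabine it was 5 with the block, 0 with cyclic loess, with centring, with the trended robust prior and with only the compared arrays, and 0 to 2 without single arrays. The causes were not tested.

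On IgG-IP arrays, members lower at the unadjusted p numbered, for gemcitabine against DMSO, 22 among genes with a mean above 6, where only 32 members were tested, and 20 to 44 without single arrays, the lowest without the gemcitabine array numbered 2. For olaparib against DMSO they numbered 2 with centring, 0 among genes with a mean above 6, 8 with the block, 7 without those 2 HuR-IP arrays, 9 with only the compared arrays and 1 to 10 without single arrays. For gemcitabine against olaparib they numbered 6 among brighter genes, 28 with the block and 2 to 27 without single arrays. The block added no adjusted call on IgG-IP arrays. Probe signal near background limits the 27 dim members.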
